A study of Homo sapiens with 20 samples.

Results

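The genes described here are 10 targets and regulators of canonical Wnt signalling or markers of pericentral hepatocytes, measured in HepaRG cells: AXIN2, RNF43, ZNRF3, NKD1, LGR5, LEF1, TCF7, TBX3, GLUL and RHBG. They were chosen by name, and every probe whose RefSeq accession maps to 1 of these symbols was taken, which gave 14 of the 42405 probes of the array. HepaRG is a human hepatoma line, a single line derived from a hepatocellular carcinoma, whose progenitors differentiate in culture into hepatocyte-like and biliary-like cells. The cells received the same medium with serum, insulin and hydrocortisone throughout and were collected as 4 replicates of each of 5 conditions: 4 days after seeding (D4, progenitors), day 15 (D15, committed cells), day 30 without DMSO (D30 − DMSO), day 30 after 2% DMSO from day 15 on (D30 + DMSO), and day 34, when DMSO had been removed for 4 days from D30 + DMSO cultures (D34 ± DMSO). DMSO was the only agent that differed between conditions, which also differ in time. The methods describe the replicates as independent biological replicates. Total RNA was labelled with Cy3 and hybridised to 20 one-color Agilent 8x60K arrays. The comparisons ask how these genes move on commitment (D15 against D4), during further culture without DMSO (D30 − DMSO against D15), on DMSO addition (D30 + DMSO against D30 − DMSO) and on its removal (D34 ± DMSO against D30 + DMSO, and against D30 − DMSO). Several of these comparisons share a condition, so their values are not independent of each other.

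In canonical Wnt signalling, secreted Wnt ligands bind Frizzled receptors and LRP co-receptors, β-catenin escapes degradation, and TCF and LEF proteins bound to DNA switch from repression to activation of target genes. Several targets feed back on the pathway: AXIN2 and NKD1 act inside the cell, RNF43 and ZNRF3 remove Frizzled from the surface, and LGR5, a receptor for R-spondins, counters RNF43 and ZNRF3. In the liver lobule the pathway is active around the central vein, where GLUL (glutamine synthetase), RHBG (an ammonium transporter) and TBX3 (a T-box transcription factor) mark the pericentral hepatocytes. A culture dish has no lobule, so zonal names refer here to the genes and not to a position of the cells.

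Since TCF and LEF proteins bind a short word in DNA, promoter sequences were looked up for RNF43, LEF1 and TCF7. These members passed the thresholds in more than 1 comparison. For TCF7 this counts DMSO removal, which is only a description, since TCF7 entered the tests through D34 ± DMSO. The RefSeq table (GRCh38.p14) held 5 of the 10 members, RNF43, LEF1, TCF7, GLUL and RHBG. The 250 bases before the outermost annotated start are printed for the 3 genes, 5′ to 3′ on the strand of the gene, at chr17:58417535-58417784 (minus strand), chr4:108166302-108166551 (minus strand) and chr5:134115363-134115612 (plus strand).
RNF43: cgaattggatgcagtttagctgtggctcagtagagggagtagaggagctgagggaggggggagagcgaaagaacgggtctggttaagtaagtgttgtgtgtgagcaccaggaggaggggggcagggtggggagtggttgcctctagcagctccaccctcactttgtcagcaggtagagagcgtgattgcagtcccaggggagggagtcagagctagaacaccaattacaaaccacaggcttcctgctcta
LEF1: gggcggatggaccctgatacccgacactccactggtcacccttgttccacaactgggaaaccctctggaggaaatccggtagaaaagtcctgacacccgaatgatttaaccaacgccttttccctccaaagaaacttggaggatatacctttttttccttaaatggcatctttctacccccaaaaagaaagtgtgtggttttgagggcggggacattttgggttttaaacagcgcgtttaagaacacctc
TCF7: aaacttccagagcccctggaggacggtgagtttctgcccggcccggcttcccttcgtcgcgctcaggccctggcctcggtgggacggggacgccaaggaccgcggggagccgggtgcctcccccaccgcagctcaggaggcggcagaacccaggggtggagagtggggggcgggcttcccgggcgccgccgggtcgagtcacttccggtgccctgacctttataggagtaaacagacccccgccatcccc
The words searched on both strands were CTTTGAA and CTTTGAT, along with CTTTGTA and CTTTGTT. None of them occurs in these 3 windows, so no base is in capitals. In the same window, 12% of the 35116 promoters of the table hold at least 1 of these words. Of the 5 members in the table, 1 had a match, TCF7, where AACAAAG lies 50 bases before a second annotated start. This count is of genes, some with more than 1 window, while the 12% is of single windows, so the shares cannot be compared. A match is a description of the letters, and its absence refers only to these windows.

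The signal of each array was scaled to a common 75th percentile and is given as scaled intensity, and changes are given on the log2 scale with the standard error (SE) of a limma fit over the 20 arrays (n = 4 per condition). A probe entered the tests if, in 1 condition or more, Feature Extraction marked it as well above background on each of the 4 arrays. A gene was called changed at a Benjamini-Hochberg adjusted p below 0.005 over the 22069 genes tested and more than 2-fold. Of the 10 members, 8 were tested. LGR5 (NM_003667) and NKD1 (NM_033119), with 1 probe each, were well above background on 0 of 20 arrays, so no level or change is given for them. A dim probe is no proof of an absent transcript, and the only probe of OAT, a pericentral enzyme, was likewise dim on all 20 arrays. TCF7 passed only through D34 ± DMSO, the condition in which all 4 of its arrays were above background. The arrays lie on 4 slides scanned in 2 sessions. Slides were not balanced over conditions: the D30 + DMSO arrays lie on slides 3 and 4 only, and the D30 − DMSO arrays on slides 1, 2, 3 and 4. Leaving out slide 4 keeps 2 arrays of D30 + DMSO, both on slide 3. The part of this smaller number of arrays in calls lost that way was not tested. Replicate 4 of every condition lies on slide 4 and held the lowest value of its condition in 5 of 5 conditions for the first probe of AXIN2, and the highest in 5 of 5 for GLUL, the other AXIN2 probe and the weaker ZNRF3 probe, which was noticed after the values were seen. The part of the slide in the comparisons is given by a fit with the slide as a block and by differences within slides. As a check of the cell label, all 8 hepatocyte markers were higher at D15 than at D4, with a summed scaled intensity of 82884 to 171307 at D4 and 719574 to 1046716 at D15. Of the endothelial markers 3 of 8 were tested: CDH5 and KDR, well above background on 20 of 20 arrays, and TEK, on 7. PECAM1, VWF, STAB2, LYVE1 and ERG were not tested, though VWF was well above background on 13 arrays.

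**Figure D1:**
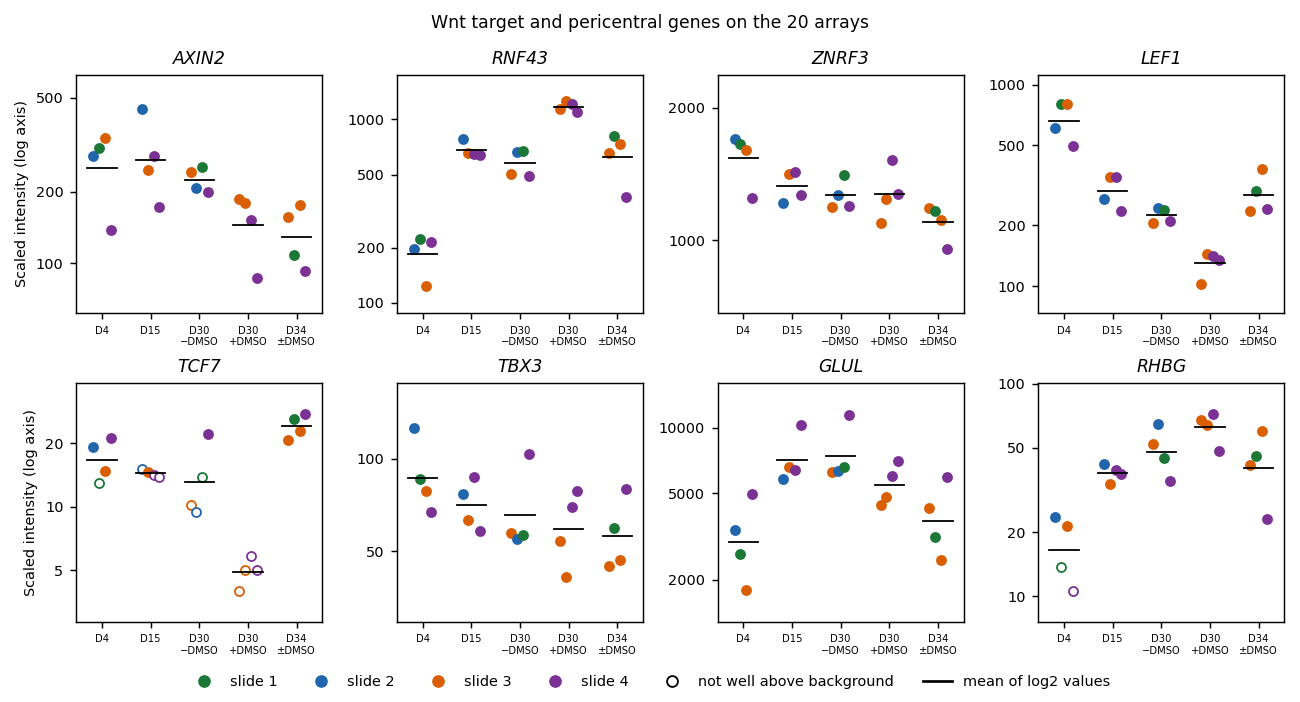
Scaled intensity (log axis, a separate range in each panel) of the 8 tested members on each of the 20 arrays, by condition, with replicates 1 to 4 from left to right, colored by slide. Open points are arrays on which the probe was not well above background and lines are means of the log2 values. RNF43 was highest in D30 + DMSO, the condition in which LEF1 and TCF7 were lowest.

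Among the feedback regulators, RNF43 (NM_017763), a ubiquitin ligase of the cell surface, moved most. At D4 its scaled intensity was 197, 224, 123 and 215 in replicates 1 to 4, and at D15 it was 778, 654, 648 and 640.5. Every D15 array was above every D4 array. RNF43 rose 3.66-fold from D4 to D15 (log2 fold change 1.87 ± 0.22, SE, limma adjusted p = 2.81e-06). It was 1 of 3 members called in this comparison, with RHBG and LEF1, against 9.54% of all genes tested. At D30 − DMSO the values were 504, 663, 669.7 and 489.5, which overlap those of D15. With DMSO they were 1132, 1251, 1207 and 1093, above every array of the other 4 conditions. RNF43 rose 2.03-fold on DMSO addition (log2 fold change 1.02 ± 0.22, limma adjusted p = 0.00236), and it and TCF7 were the 2 of 8 members called, against 5.9% of all genes. After removal the values were 658, 814, 733 and 377, all below those with DMSO. This difference (-0.91 ± 0.22, limma adjusted p = 0.00472) was 1.88-fold and thus short of the 2-fold limit. The D34 ± DMSO and D30 − DMSO arrays overlapped, with a log2 difference of 0.11 ± 0.22.

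Within slides, the rise of RNF43 from D4 to D15 was 1.98, 2.40 and 1.58 on the log2 scale on slides 2, 3 and 4, and that on DMSO addition was 1.24 on slide 3 and 1.23 on slide 4. With the slide as a block, the difference on DMSO removal was -1.04 (limma adjusted p = 0.000541) and passed both limits, as it did without D34 ± DMSO replicate 2 (-1.04). The call on DMSO addition was close to the limit. It was lost without D30 − DMSO replicate 1 (0.96) or 4 (0.94) and without replicate 1 (1.04), 2 (0.99), 3 (1.01) or 4 (1.06) of D30 + DMSO, and, among other settings, with quantile normalization (0.98), normexp correction (0.88), no filter on dim probes (1.02) and without the arrays of slide 4 (0.97). The rise from D4 to D15 passed in every alternative run.

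ZNRF3 (NM_032173), the paralog of RNF43 with the same biochemical role, showed no such pattern. Its brighter probe read 1698, 1656, 1605 and 1246 at D4, 1213, 1414, 1429.9 and 1265 at D15 and 1194, 1267, 1410.1 and 1199.6 at D30 − DMSO. With DMSO the values were 1094, 1239.5, 1519.6 and 1272, and after removal they were 1183, 1168, 1115 and 959. The condition ranges overlapped in all comparisons except D34 ± DMSO against D30 − DMSO, where the log2 difference was -0.20 ± 0.13 (limma adjusted p = 0.584). The log2 change on DMSO addition was 0.01 ± 0.13, and the weaker probe gave 0.08 ± 0.41. ZNRF3 was called in none of the 5 comparisons, and the difference between its change and that of RNF43 was not tested.

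AXIN2 (NM_004655), a scaffold of the β-catenin destruction complex and a widely used target gene, was not called in any comparison either. Its brighter probe read 283, 305, 337 and 138 at D4 and 447, 248, 285 and 173 at D15, with overlapping ranges. At D30 − DMSO it read 244, 208, 254 and 200.5, with DMSO 186, 179, 152 and 86.2 and after removal 157, 109, 175 and 92.7. All 4 arrays with DMSO were below all 4 without DMSO at day 30, and the log2 difference was -0.64 ± 0.32 (limma adjusted p = 0.201). The second AXIN2 probe gave -0.57 ± 0.25, with values of 178, 185, 192 and 269.7 without and 114, 124, 131 and 187 with DMSO, which overlap. After removal, D34 ± DMSO differed from D30 − DMSO by -0.80 ± 0.32 for the first probe and by -0.98 ± 0.25 for the second (limma adjusted p = 0.025 over all probes), with no overlap of the arrays for either. The second probe read 93.97, 124, 71.5 and 134 after removal. Neither probe passed the threshold. In order of mean level, the first AXIN2 probe was highest at D15, then D4, D30 − DMSO, D30 + DMSO and D34 ± DMSO, and no neighbouring pair in this order passed the threshold. For the second probe D30 − DMSO (mean log2 value 7.67) lay above D4 (7.61). Over the 20 arrays, the genes with the profile most like that of AXIN2 were, apart from 1 lincRNA probe without a symbol, COX20, SLC18B1, SNX6 and LDAF1, with Pearson r from 0.884 to 0.903. These arrays share conditions and slides.

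**Figure D2:**
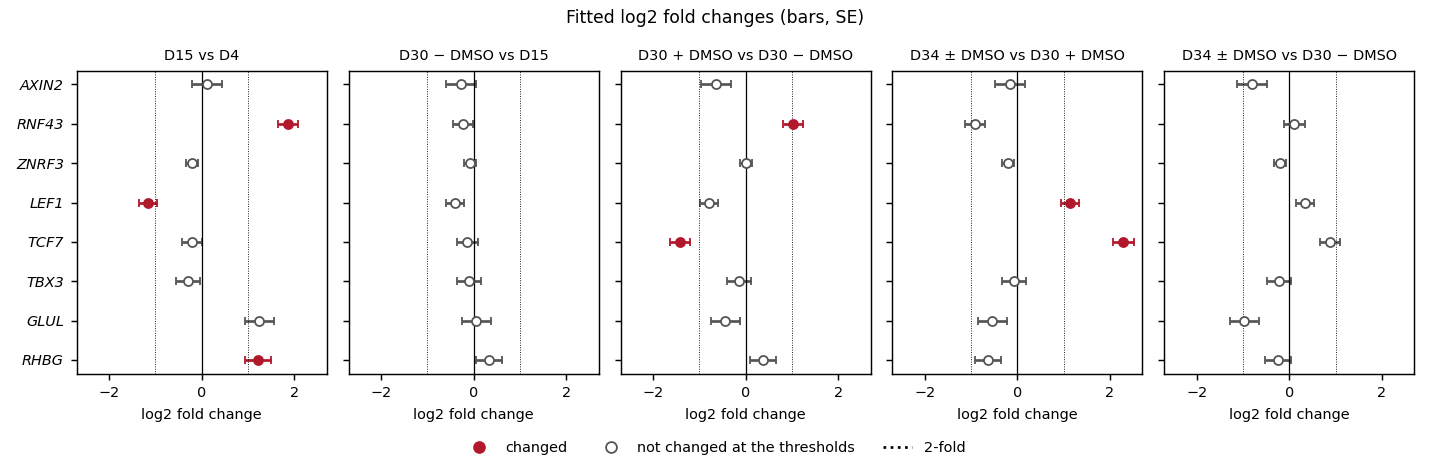
Fitted log2 fold change of each tested member in the 5 comparisons, with bars for the SE (n = 4 arrays per condition) and dotted lines at 2-fold. Filled points passed both thresholds: RNF43, RHBG and LEF1 from D4 to D15, RNF43 and TCF7 on DMSO addition, and LEF1 and TCF7 on its removal. TCF7 entered the tests only through D34 ± DMSO, so its points against that condition are a description.

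The nuclear partners of β-catenin, LEF1 and TCF7, were the members called higher on DMSO removal, against 4.93% of all genes called higher, but TCF7 entered the tests only because it was high after removal. LEF1 (NM_016269), which binds target genes together with β-catenin, read 612, 797, 802 and 496 at D4. At D15 it read 272, 349, 348 and 235, below every D4 array. LEF1 fell 2.24-fold between these stages (log2 fold change -1.16 ± 0.19, limma adjusted p = 0.000145). At D30 − DMSO the values were 206, 244, 239 and 212 and overlapped those of D15 (-0.40 ± 0.19). With DMSO they were 103, 144, 141 and 135, all below those without DMSO. The log2 difference of -0.79 ± 0.19 was 1.73-fold, with a limma adjusted p of 0.00611, and passed neither limit. After removal the values were 236, 298, 382 and 242, above every array with DMSO. LEF1 rose 2.19-fold on removal (log2 fold change 1.13 ± 0.19, limma adjusted p = 0.000252). It and TCF7 were the 2 of 8 members called, against 7.05% of all genes, but TCF7 was admitted through D34 ± DMSO and cannot be set against that share. The level after removal overlapped that of D30 − DMSO (0.34 ± 0.19, limma adjusted p = 0.463). In order of level, LEF1 was highest at D4 and lowest with DMSO. D15, D34 ± DMSO and D30 − DMSO lay between and did not differ from each other at the thresholds.

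The fall of LEF1 from D4 to D15 was -1.17, -1.20 and -0.79 within slides 2, 3 and 4, and its rise on removal was 1.30 within slide 3 and 0.81 within slide 4. Without D34 ± DMSO replicate 3 the rise on removal was 0.99 and under 2-fold. The call on removal was also lost with normexp correction and with a fit of only the arrays compared. With the methods' t-test both differences missed the limit on the adjusted p. Proliferation markers moved at the same 2 steps. The sum of MKI67, TOP2A, CDK1, CCNB1, CCNA2, PCNA, MCM2 and E2F1 ranged over 12674 to 14946 at D4, 2186 to 4093 at D15, 2823 to 3928 at D30 − DMSO, 2118 to 3187 with DMSO and 9716 to 14075 after removal, and all 8 genes were called lower at D15 and higher after removal. Of 8 stromal markers 3 were tested, while COL1A2, COL3A1, PDGFRA, PDGFRB and LRAT were not, and the sum over the tested genes was 4050.4 to 9121 at D30 − DMSO, 1169 to 1962 with DMSO and 4353 to 9535 after removal. The part of these markers in the results for LEF1, TCF7 and the pathway genes was not tested. In these bulk samples, fewer cells of a type and less RNA per cell cannot be told apart.

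TCF7 (NM_003202), a TCF family member with a role like that of LEF1, was a dim gene measured by 10 spots on each array. Its values were 19.1, 12.9, 14.7 and 21.3 at D4 and 15.2, 14.6, 14.1 and 13.8 at D15, with 3 and 1 of 4 arrays well above background. At D30 − DMSO they were 10.2, 9.47, 13.8 and 22.2, with replicate 4 alone above background. With DMSO they were 3.99, 5.02, 5.84 and 5.01, with 0 of 4 arrays above background, and after removal 20.6, 25.97, 22.8 and 27.4, with 4 of 4. The arrays with DMSO were the lowest of all 20, and those after removal overlapped D30 − DMSO through its replicate 4. TCF7 was called lower on DMSO addition (measured log2 difference -1.41 ± 0.22, limma adjusted p = 0.000153), but with a dim probe in both conditions no fold is given. After removal it was higher by at least 1.78-fold, against the lowest signal well above background (measured log2 difference 2.29 ± 0.22). Since the filter admitted TCF7 through D34 ± DMSO, its values against that condition are given as a description, without a p. Within slides the measured difference on removal was 2.28 on slide 3 and 2.34 on slide 4.

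Both TCF7 differences depended on how dim signals were treated. That on DMSO addition was -0.20 (limma adjusted p = 0.124) after normexp background correction and -0.41 (limma adjusted p = 0.208) with a floor of 10 intensity units, and was called with neither. That on removal was 0.37 after normexp correction, under 2-fold and not called, and 1.27 with the floor. Against D30 − DMSO, TCF7 after removal was higher by 0.88 ± 0.22, and by 1.13 without D30 − DMSO replicate 4. Fits without 1 array aside, the TCF7 call on DMSO addition was lost in 5 of 14 alternatives, quantile normalization among them.

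**Figure D3:**
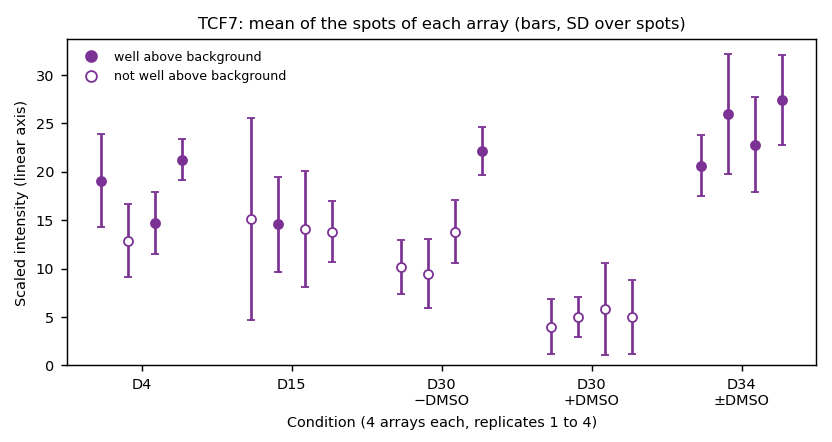
Scaled intensity (linear axis) of TCF7 on each array, as the mean of its 8 to 10 unflagged spots with bars for their SD. Open points were not well above background. The 4 arrays with DMSO sit between 3.99 and 5.84 and the 4 arrays after removal between 20.6 and 27.4, and replicate 4 of D30 − DMSO sits at 22.2.

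Of the pericentral members, RHBG was called higher in committed cells than in progenitors, and GLUL and TBX3 were not called. RHBG (NM_020407) read 23.7, 13.7, 21.3 and 10.6 at D4, where 2 of 4 arrays were well above background, and 42.1, 33.9, 39.2 and 37.7 at D15. RHBG rose 2.31-fold (log2 fold change 1.21 ± 0.28, limma adjusted p = 0.00324), with no overlap of the arrays. It read 51.9, 64.7, 44.6 and 35.00 at D30 − DMSO, 67.6, 63.8, 71.8 and 48.4 with DMSO and 41.6, 45.6, 60.03 and 23.04 after removal. These ranges overlapped, and the log2 differences were 0.38 ± 0.28 on DMSO addition and -0.63 ± 0.28 on removal (limma adjusted p = 0.433 and 0.127). The second RHBG probe passed that mark on 8 of 20 arrays and was not tested. The call for D15 was lost without D4 replicate 2 (1.12) or 4 (1.00) and without D15 replicate 1 (1.16), 2 (1.27), 3 (1.20) or 4 (1.21), and without the arrays of slide 4 (0.99), and normexp correction gave 0.33. It was also lost with no filter on dim probes, with a fit of only the arrays compared and with the methods' t-test. With the slide as a block the rise was 1.28 (limma adjusted p = 0.000391).

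GLUL (NM_002065), which builds glutamine from ammonium and glutamate, was a bright gene at every stage. It read 3382, 2635, 1797 and 4978 at D4 and 5823, 6573, 6386 and 10244 at D15, with no overlap. The log2 difference was 1.24 ± 0.31, 2.37-fold, with a limma adjusted p of 0.00616, just short of the threshold. With the slide as a block it was 1.07 and passed (limma adjusted p = 0.00117), and the differences within slides 2, 3 and 4 were 0.78, 1.87 and 0.70. It also passed without D4 replicate 4 (1.49). At D30 − DMSO the values were 6252, 6296, 6612 and 11435, with DMSO 4401, 4785, 5976 and 7066 and after removal 4283, 3141, 2472 and 5927. GLUL was thus not higher with DMSO: the log2 difference was -0.44 ± 0.31 on addition and -0.54 ± 0.31 on removal, neither past the threshold. After removal every array was below every D30 − DMSO array, by -0.98 ± 0.31 (limma adjusted p = 0.0882). In order of level, GLUL was highest at D30 − DMSO, then D15, D30 + DMSO, D34 ± DMSO and D4. Neighbours in this order did not differ at the thresholds, and D30 − DMSO was called higher than D4 (1.31, limma adjusted p = 0.00385). The profiles most like that of GLUL over the 20 arrays were those of MOB3C, CNPPD1, PRKD1, LETMD1 and SERPINA5, with Pearson r from 0.923 to 0.948.

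TBX3 (NM_016569) was near the same low level throughout. Its brighter probe read 126, 85.8, 78.4 and 66.9 at D4, 76.6, 63.4, 87.2 and 58.2 at D15, 57.2, 55.03, 56.6 and 104 at D30 − DMSO, 53.8, 41.3, 69.7 and 78.3 with DMSO and 44.8, 59.6, 46.8 and 79.8 after removal, with overlapping ranges in all 5 comparisons. Its largest log2 difference among them was -0.30 ± 0.26 from D4 to D15 (limma adjusted p = 0.496), and the second probe gave -0.47 ± 0.22.

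From D15 to D30 − DMSO, 0 of the 8 tested members were called, against 0.00906% of all genes. The methods' t-test also called 0. At an unadjusted limma p under 0.05 the count was 0 as well, against 656 of all 22069 genes, and LEF1 came closest (-0.40 ± 0.19, limma unadjusted p = 0.0506). Between D34 ± DMSO and D30 − DMSO limma and the methods' t-test called 0 members, against 1.53% of all genes called and 1.32% called higher. An unadjusted limma p under 0.05 was reached by 3, AXIN2, GLUL and TCF7, against 3390 of all 22069 genes. TCF7 entered the tests only through D34 ± DMSO and cannot be set against that share. Over the 5 conditions together, limma's moderated F-test with Bonferroni adjustment at 0.001 and a span of over 3-fold across the condition means called 2 members, RNF43 (6.32-fold, adjusted p = 0.000245) and LEF1 (5.12-fold, adjusted p = 0.000264), against 5.41% of all genes. Both calls were lost without D4 replicate 1 or 2, or without replicate 1, 2, 3 or 4 of D30 + DMSO, where 0 members were called. Without D4 replicate 3 RNF43 alone was called, without D4 replicate 4 LEF1 alone, and without D30 − DMSO replicate 4 TCF7 was called as well.

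The rest of the Wnt pathway was taken from lists of ligands, receptors, inhibitors, intracellular components, TCF partners and other target genes. Of 24 Wnt and R-spondin ligands, 8 were tested (WNT3, WNT3A, WNT5A, WNT6, WNT10B, WNT11, RSPO2 and RSPO3), and 1 was called in the 3 main comparisons. Of all genes, 9.54% were called from D4 to D15, 5.9% on DMSO addition and 7.05% on removal. RSPO2 (NM_178565), a ligand of the LGR receptors, fell at least 1.75-fold on DMSO addition, from 25.6 ± 12.5 (SD, n = 4) to 4.38 ± 3.03 with 0 of 4 arrays above background (limma adjusted p = 0.00087). The RSPO2 call was lost without the arrays of slide 4 (-2.49, limma adjusted p = 0.0187), and with the slide as a block WNT11 was called as well (-1.56, limma adjusted p = 0.000389). Of 18 tested genes for Wnt secretion and reception, 1 rose and 3 fell from D4 to D15, against 5.82% of all genes called higher and 3.72% called lower. FZD4 (NM_012193), a Frizzled receptor, rose from 595 ± 75.03 to 2249 ± 378 (log2 fold change 1.91 ± 0.21, limma adjusted p = 1.34e-06). PORCN, the acyltransferase that readies Wnt proteins for secretion, fell by 1.34 and ROR1, a Wnt receptor kinase, fell by 1.06 on the log2 scale. The third, FZD7, lies outside the naming rule and changed by -1.03 ± 0.19. On DMSO addition 1 of the 18, ROR2, a receptor kinase for WNT5A, was called (-1.50 ± 0.27), against 5.9% of all genes. Blocking on the slide added 2 Frizzled genes, named outside the rule, FZD2 (-1.27, limma adjusted p = 0.000129) and FZD3 (1.01, limma adjusted p = 0.00112), and FZD2 was called without slide 4 as well. On removal limma without a block called 0 of the 18, against 7.05% of all genes, and the methods' t-test also called 0. An unadjusted limma p under 0.05 was reached by 10 of the 18, against 7028 of all 22069 genes. The fit blocked on the slide called 3, FZD4 (-1.03, limma adjusted p = 2.74e-05), FZD8 (-1.03, limma adjusted p = 0.000427) and ROR2 (1.20, limma adjusted p = 0.000275), against 1855 of all 22069 genes.

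Of 16 secreted inhibitors and their co-receptors, 4 were tested, and 14 ligands and inhibitors, among them NOTUM, WIF1 and WNT2, were above background on no array. DKK1 (NM_012242), an inhibitor of LRP co-receptors and itself a Wnt target, fell on DMSO addition from 4371 ± 3120.2 to 630.0 ± 62.97 (log2 fold change -2.58 ± 0.40, limma adjusted p = 0.000145). KREMEN2, a DKK receptor, fell at least 4.99-fold from D4 to D15 and rose at least 1.51-fold on removal. It was also called lower on DMSO addition, but was dim in both conditions, so no fold is given. Without the arrays of slide 4, KREMEN2 was called in none of these 3 comparisons (limma adjusted p = 0.00887, 0.178 and 0.0258 at D15, on addition and on removal), and with the slide as a block the call on addition was lost. Among 19 intracellular components, APC2 alone was called, lower with DMSO (-1.43 ± 0.24) and higher after removal (1.03 ± 0.24). Of all genes, 4.16% were called lower on addition and 4.93% higher on removal. CTNNB1, which encodes β-catenin and is named outside the rule, read 4434 ± 617 without and 6153 ± 629.5 with DMSO (0.48 ± 0.13, limma adjusted p = 0.0155). Of 10 tested TCF partners, 1 was called on DMSO addition and on removal, TLE2, a Groucho corepressor, against 5.9% and 7.05% of all genes. It fell 5.36-fold on DMSO addition (log2 fold change -2.42 ± 0.21, limma adjusted p = 3.23e-07), from 672 ± 264 to 121 ± 24.5, and rose 4.8-fold on removal (2.26 ± 0.21), to 579 ± 96.8. On DMSO addition the methods' t-test called 0 ligands, 0 secretion and reception genes, 0 inhibitors and 0 intracellular components. The calls of RSPO2, ROR2, DKK1, KREMEN2 and APC2 on addition were thus lost, as were those of KREMEN2 and APC2 on removal. Of the TCF partners that test called 1 on addition and 1 on removal.

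Of 13 tested targets of the pathway described in other tissues, 1 was called higher and 4 lower from D4 to D15, beside the 5.82% of all genes called higher and 3.72% called lower. Blocking on the slide gave 2 higher, with VEGFA added, and 3 lower, without CD44. PROX1, a transcription factor of liver cells, read 18.8 ± 19.6 at D4, where 1 of 4 arrays was above background, and 133 ± 32.1 at D15, and was called higher. BIRC5 (survivin, a mitotic protein) fell 8.56-fold and FOSL1 (an AP-1 component) 2.44-fold, and MYC and CD44, outside the naming rule, changed by -1.20 ± 0.18 and -1.02 ± 0.14. On DMSO addition, MMP7, a matrix metalloproteinase, fell by 1.58 and FOSL1 fell by 1.46 on the log2 scale. On removal, BIRC5 (2.97 ± 0.38), FOSL1 (1.74 ± 0.21) and, outside the rule, CD44 (1.05 ± 0.14) rose and JUN (-1.36 ± 0.20) fell. Of all genes, 4.16% were called lower on addition, and on removal 4.93% were called higher and 2.12% lower. The MMP7 call was lost without the arrays of slide 4 (-1.37, limma adjusted p = 0.00913), and the CD44 call on removal both with the slide as a block and without slide 4, at 0.97 and 0.98. With the methods' t-test 2, 1 and 1 of the 13 were called at D15, on addition and on removal. The list medians were -0.55, -0.37 and -0.03 in these 3 comparisons, beside 0.04, 0.04 and -0.07 for all genes. BIRC5 is also a gene of proliferating cells, and the proliferation sums given with LEF1 apply here too.

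For zonation beyond the members, 19 of 22 further pericentral genes and 18 of 20 periportal genes were tested. From D4 to D15, 10 pericentral genes rose and 0 fell, and 13 periportal genes rose and 0 fell, against 5.82% of all genes called higher. The median log2 fold change was 1.90 for the pericentral and 2.53 for the periportal list, or 0.82 and 2.07 with dim genes at their bounds. ADH4, an alcohol dehydrogenase, rose from 28.97 ± 20.1, with 3 of 4 arrays above background, to 3226 ± 323. On the periportal side, ARG1 (arginase of the urea cycle) rose at least 66.7-fold. Hepatocyte markers rose at the same step, and ALB and APOA1 stand in both the hepatocyte and the periportal list.

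On DMSO addition, 8 of 19 pericentral genes rose and 1 fell, and 4 of 18 periportal genes rose and 1 fell, against 1.74% of all genes called higher and 4.16% called lower. The difference between the 2 lists was not tested. CYP3A4 (NM_017460), the main drug-metabolising P450 of the liver, rose from 3547 ± 1025 to 57479.6 ± 5024 (log2 fold change 4.07 ± 0.26, limma adjusted p = 9.94e-09). CYP2E1 (NM_000773), the ethanol-oxidising P450, rose from 72.9 ± 33.02 to 1751 ± 124 (4.76 ± 0.45, limma adjusted p = 6.13e-07). LECT2, a secreted protein and Wnt target of hepatocytes, went the other way and fell at least 2.48-fold, to a level with 0 of 4 arrays above background. In the periportal list, PCK1 (gluconeogenesis) was called higher, from 14.9 ± 21.2 with 1 of 4 arrays above background to 134 ± 32.05, a call lost without the arrays of slide 4 (3.62, limma adjusted p = 0.0136). GLS2 (liver glutaminase) rose by 2.98 ± 0.31, and HAL (histidine breakdown) fell at least 2.94-fold. P450 and GSTM genes have close paralogs whose transcripts may share probe sequence.

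On removal, 6 of 19 pericentral genes fell and 1 rose, and 3 of 18 periportal genes fell and 1 rose. Of all genes, 2.12% were called lower and 4.93% higher. CYP3A4 fell 91.7-fold, to 644 ± 195, and CYP2E1 fell 12-fold, to 154 ± 56.8. LECT2 rose at least 1.18-fold. SDS (serine dehydratase) fell by 3.33 and GLS2 fell by 3.14 on the log2 scale, and HAL rose at least 3.72-fold. With the slide as a block the pericentral counts were 10 higher and 0 lower at D15, 8 and 1 on DMSO addition and 1 and 7 on removal. Without the arrays of slide 4 they were 10 and 0, 9 and 1, and 1 and 6. The methods' t-test called fewer genes in these 3 comparisons, counted in either direction. It called 7, 5 and 3 pericentral genes, against 10, 9 and 7 with limma, and 9, 1 and 1 periportal genes, against 13, 5 and 4. The hepatocyte marker sum was 917380.4 to 973452 at D30 − DMSO, 1047973 to 1720680.3 with DMSO and 885185 to 1119728 after removal. Limma and the methods' t-test called 0 of 8 markers in either comparison. At an unadjusted limma p under 0.05 there were 4 on addition and 3 on removal, against 6369 and 7028 of all 22069 genes. The part of the marker sum in the counts was not tested. The pericentral members GLUL and RHBG were not called in either DMSO comparison, and AXIN2 was not called in any.

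**Figure D4:**
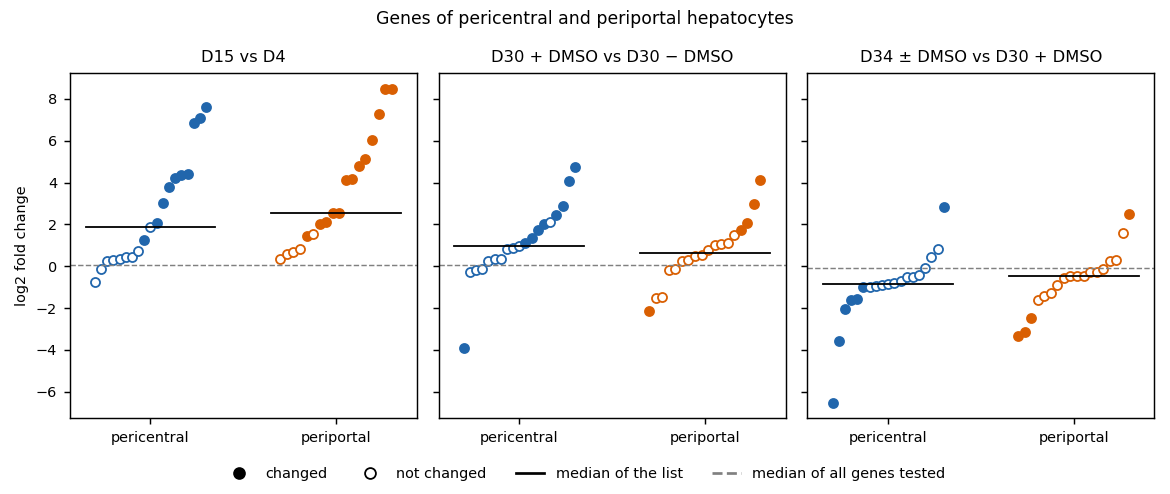
Log2 fold change of each tested gene of the pericentral (19) and periportal (18) lists in 3 comparisons. Filled points were called changed, solid lines are list medians (1.90 and 2.53 at D15, 0.95 and 0.65 on DMSO addition, -0.87 and -0.48 on removal) and the dashed line is the median of all genes tested. Changes of both lists lie mostly above it at D15 and with DMSO and mostly below it after removal.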

How the data were processed

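RNA of HepaRG cells in 5 conditions, 4 arrays each, was hybridised to one-color Agilent 8x60K arrays. The authors deposited Feature Extraction output for each array (version 10.7.3.1 per the labels, 10.7.1.1 per the file headers). Its processed signal is an intensity from which background and spatial trend were removed within an array, without scaling between arrays. The authors deposited median spot and local background intensity and flags of 0 or 1 as well. They also deposited log2 values, relative to a baseline that is not given in the sources used here, which served as an alternative. Their column medians lay between -0.20 and 0.17, and their differences between arrays match the scaled log2 signal (median absolute difference 3.53e-07 over 21335 probes, after a shift of up to 0.11 per array).

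Spots marked as outliers were left out (265 to 644 of the 58717 spots of an array), and the spots of a probe were averaged. Arrays were brought to the same 75th percentile (from 407 to 766 before scaling), values under 1 were set to 1, and log2 was taken. Between 61.1% and 74.2% of the spots of an array were well above background, and a probe was taken as such if most of its spots were. The filter kept 26351 of 42405 probes. RefSeq accessions gave 24826 probes a current symbol. A gene with several probes was represented by that of the highest mean. Where a gene was dim in a condition, "at least" folds are against the lowest signal well above background there.

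A model with a mean for each of the 5 conditions was fitted across 22069 genes with limma (version 3.58.1, R 4.3.3, and data.table version 1.17.8 for reading files), at the thresholds of the study's methods and with limma's tests in place of theirs. The code that makes the calls was tested on simulated data. The main fit had no term for slide or scan session, which were treated as batches only in alternative fits. The members, lists and alternatives were chosen with earlier results of these data known. Besides the members, the genes named were those of each list called on commitment, DMSO addition or DMSO removal, at most the 2 largest rises and the 2 largest falls of a list in a comparison, and the 5 genes most like AXIN2 and GLUL in profile (LGR5, in the same rule, was not tested). Some genes that this rule names are not reported here. Alternatives were quantile normalization, normexp correction of the median intensity (offset 50), the deposited log2 values, a floor of 10, other filters on dim probes, every probe tested, blocks for slide, scan session and replicate number, fits of the compared arrays alone, the tests of the methods, an adjusted p below 0.05, leaving out each array, keeping outlier spots and leaving out slide 4.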

Additional observations from a re-analysis of the deposited data

Results flagged for a closer look

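3 of the 55 sets of 4 arrays, for 11 probes of the members in 5 conditions, held 1 array far from the other arrays by Dixon's test at the 95% level. Chance alone marks about 1 in 20 such sets. GLUL on D30 − DMSO replicate 4 read 11435, against 6612 for the next array. TBX3 on the same array read 104, against 57.2 for the next. RNF43 on D15 replicate 1 read 778, against 654 for the next. These arrays were kept. Without D30 − DMSO replicate 4 the RNF43 call on DMSO addition was lost (0.94 in place of 1.02).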

How the results depend on the processing

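With 4 arrays per condition precision is limited, and signals near background limit what can be said of TCF7, RHBG, LGR5 and NKD1. The alternatives changed called values in size but not in direction. The count of members called on DMSO addition, 2, was 0 with quantile normalization and with normexp background correction, and 1 with a floor of 10, with no filter on dim probes, with probes well above background on all arrays, with a fit of the arrays compared, with the methods' t-test and without the arrays of slide 4. On removal the count of 2 includes TCF7, which entered the tests only through D34 ± DMSO. That count was 0 with normexp correction, and 1 with probes above background on all arrays, with a fit of the arrays compared and with the t-test. From D4 to D15 the count of 3 was 1 with the t-test. Over the 5 conditions the count of 2 was 0 with no filter, with the methods' analysis of variance and without the arrays of slide 4, and 1 with the slide as a block. Leaving out 1 array at a time gave 2 to 3 members from D4 to D15, 0 to 0 from D15 to D30 − DMSO, 1 to 2 on DMSO addition, 1 to 3 on removal, 0 to 1 for D34 ± DMSO against D30 − DMSO and 0 to 3 over the 5 conditions. The cause of these changes was not tested. Kept outlier spots changed no call of a member, and this alternative and that without slide 4 were chosen after seeing the data.

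Values that changed sign were near 0 and uncalled. On DMSO addition ZNRF3 gave -0.0382 (quantile normalization), -0.0103 (normexp background correction), -0.000253 (the authors' matrix values), -0.14 (without the arrays of slide 4), on removal TBX3 gave 0.000896 (slide as a block), 0.0152 (scan session as a block), 0.0833 (without the arrays of slide 4), and from D15 to D30 − DMSO TCF7 gave 0.027 (normexp background correction). With 1 array left out, the ranges that crossed 0 were -0.0768 to 0.0813 for ZNRF3 and -0.29 to 0.0687 for TBX3 on DMSO addition, -0.24 to 0.0644 for TBX3 on removal, -0.39 to 0.0191 for TCF7 and -0.15 to 0.24 for GLUL from D15 to D30 − DMSO, -0.18 to 0.33 for AXIN2 from D4 to D15, and -0.0216 to 0.35 for RNF43 and -0.44 to 0.0188 for RHBG between D34 ± DMSO and D30 − DMSO.

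The labels do not say that a replicate number marks a shared batch, and not every pair of arrays with the same number varied together. Of 40 such pairs in different conditions, 27 had deviations from the condition means with r over 0.1 (median 0.28, lowest -0.33), against 44 of 120 pairs with different numbers (median -0.17), and 10 of 20 arrays had their highest mean r with their own number. With the replicate block, 4, 0, 2, 2 and 0 members were called in the 5 comparisons and 2 over the 5 conditions, the added one being GLUL from D4 to D15 (1.24, limma adjusted p = 7.01e-05). The same fit called 2345, 3, 1525, 1763 and 426 of all 22069 genes in the 5 comparisons. Of 44 pairs on the same slide all 44 had an r over 0.1 (median 0.39), against 27 of 116 pairs on different slides (median -0.18). Over all genes, the counts for D4 to D15, DMSO addition and removal, 2105, 1301 and 1555, were 1332, 691 and 881 with normexp correction and 1108, 580 and 499 with the t-test. With probes above background on all arrays the count on DMSO addition was 859. For D34 ± DMSO against D30 − DMSO, 338 became 41 with the t-test and 171 with the arrays compared.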

Other observations

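SOX9, a transcription factor of biliary and progenitor cells that is also described as a Wnt target in other tissues, rose on DMSO addition (log2 fold change 1.31 ± 0.24, limma adjusted p = 0.000733), from 64.4 ± 8.44 to 161 ± 33.4 (SD, n = 4), and fell on removal (-2.09 ± 0.24), to 38.1 ± 8.86. SPP1, a secreted phosphoprotein of biliary cells, fell on addition (-1.78 ± 0.24), from 2774 ± 95.6 to 849.9 ± 325, and rose on removal (2.22 ± 0.24), to 3805 ± 608. Of the 9 biliary and progenitor markers, 6 were tested, and SOX9 and SPP1 were the 2 called in either DMSO comparison. Of all genes, 5.9% were called on addition and 7.05% on removal. Without the arrays of slide 4 the SOX9 call on addition was lost (1.00, limma adjusted p = 0.012).

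Of the 8 immune markers 7 were tested. CD68 (log2 fold change 1.41 ± 0.20) was called higher at D15, and MARCO (2.02 ± 0.46) was called higher after removal, where all 4 arrays were above background against 1 with DMSO, a call lost without the arrays of slide 4 (1.34, limma adjusted p = 0.0168). CD163 also passed at D15, but with 0 of 4 arrays above background in either condition no difference is given. Of the 3 endothelial markers tested, TEK was called lower with DMSO and higher after removal, at least 2.3-fold, and passed at D15 with a dim signal in both conditions. Among the 3 stromal markers tested, COL1A1 fell from D4 to D15 (-1.91 ± 0.43), a call lost without the arrays of slide 4 (-1.14, limma adjusted p = 0.182), and DCN (decorin, a matrix proteoglycan) fell on DMSO addition (-2.97 ± 0.33) and rose on removal (2.97 ± 0.33).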
